A study of Homo sapiens with 6 samples.

Results

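The genes described here encode 10 amino acid transporters of the human plasma membrane: SLC7A1, SLC7A2, SLC7A5, SLC7A6, SLC3A2, SLC38A1, SLC38A2, SLC1A4, SLC1A5 and SLC6A9. They were found by symbol in the deposited table, where each matched 1 of 27451 gene rows. The cells were MDA-MB-231, a widely used human triple-negative breast cancer cell line. They had received the vehicle DMSO (3 libraries) or H182 at 2 µM for 2 h (3 libraries), and H182 is presented by the series title as one of a set of STAT3 inhibitors. All libraries come from this 1 line, and nothing in the labels tells whether replicates were separate cultures, so the p-values measure the spread between libraries, which may be partly technical.

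Cells cannot make all amino acids, and polar ones cross the membrane only through carriers. Sodium-coupled carriers such as SLC38A2 pull amino acids in against a gradient, whereas exchangers such as SLC7A5 trade one amino acid for another and so depend on what the former have loaded. SLC3A2 (CD98 heavy chain) transports nothing by itself and carries SLC7 light chains to the surface. When amino acids run short or unfolded proteins accumulate, kinases that phosphorylate eIF2alpha raise translation of the transcription factor ATF4, and several transporter genes are textbook ATF4 targets.

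Values are TPM (transcript abundances scaled to a fixed total), which are adjusted for transcript length and library total, so levels of different genes can be compared. TPM keep no read number, so depth is unknown. In each library between 12230 and 12353 genes reached 1 TPM. Markers of the line were checked: VIM was at 4026 ± 24.3 TPM and CD44 at 1154 ± 30.8 TPM in DMSO (SD, n = 3), ESR1 and PGR were at or below 0.06 TPM in every library, CDH1 was at or below 0.28 TPM, and ERBB2 was at 27.5 ± 1.71 TPM in DMSO. ERBB2 and EPCAM, both listed with the low markers, were not low. EPCAM was at 13.75 to 16.15 TPM in DMSO and 12.49 to 14.55 TPM in H182. Of the markers of other cells, ADIPOQ was listed at 0, PTPRC and PECAM1 reached at most 1.07 and 0.42 TPM, and the fibroblast gene COL1A1 had means of 7.24 ± 0.688 (DMSO) and 7.59 ± 0.677 TPM (H182). In bulk RNA, fewer expressing cells and less RNA per cell cannot be told apart.

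SLC38A2 and SLC3A2 rose after H182, SLC38A1 fell slightly, and the other 7 members did not pass the test. SLC38A2 went up 3.32-fold and SLC3A2 1.56-fold in mean TPM. The test was limma on log2(TPM + 1) with Benjamini-Hochberg adjustment over the 12294 genes whose mean reached 1 TPM, and a call is an adjusted p under 0.05. All 10 members passed that filter. Among all tested genes, 5.30% were called higher and 18.7% lower, so 1 fall among 10 members is no more than the share of falls in general. The median change was -0.07 over the members and -0.09 over all tested genes on the log2 scale.

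**Figure D1:**
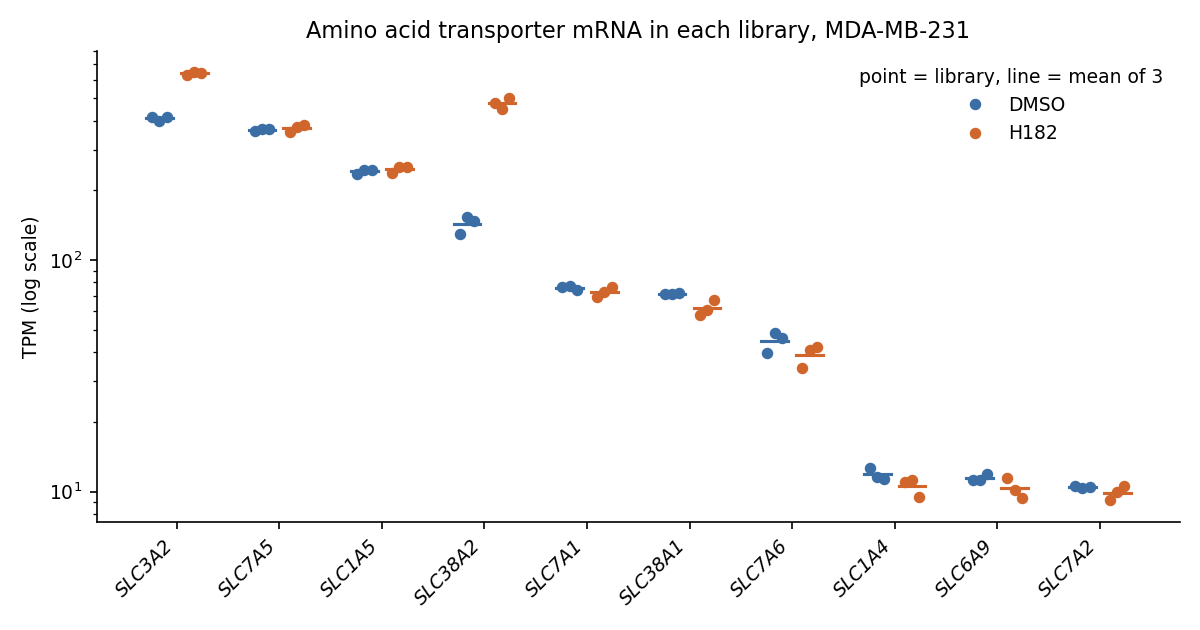
Each point is the TPM of 1 library on a log axis, for the 10 transporter genes ordered by their DMSO mean; short lines are means of 3 libraries. SLC38A2 and SLC3A2 stand clear of their DMSO points, with H182 libraries at 450 to 501 and 632 to 648 TPM, while the other genes stay near their DMSO level.

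The start regions of 4 members are shown first, because these are the pairs in which one gene rose and its relative or partner did not: the neighbours SLC38A2 and SLC38A1, and the subunit genes SLC3A2 and SLC7A5. Each line gives the 200 bases before a RefSeq transcription start (GRCh38.p14), 5′ to 3′ on the gene's strand. Capitals mark matches to 5 motifs that were searched on both strands: TATAA (TATA box), TGANTCA (AP-1), GAANNTTC (heat shock element pair), CACGTG (MYC E-box) and TGATGNAA (C/EBP-ATF element bound by ATF4). SLC38A2 is read from chr12:46372774-46372973 (minus strand), SLC38A1 from chr12:46266517-46266716 (minus), SLC3A2 from chr11:62881499-62881698 (plus) and SLC7A5 from chr16:87869508-87869707 (minus).
SLC38A2: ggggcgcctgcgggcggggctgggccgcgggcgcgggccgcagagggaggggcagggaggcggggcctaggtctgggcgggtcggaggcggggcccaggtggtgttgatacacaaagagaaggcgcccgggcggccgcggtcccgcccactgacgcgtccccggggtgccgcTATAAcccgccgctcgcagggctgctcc
SLC38A1: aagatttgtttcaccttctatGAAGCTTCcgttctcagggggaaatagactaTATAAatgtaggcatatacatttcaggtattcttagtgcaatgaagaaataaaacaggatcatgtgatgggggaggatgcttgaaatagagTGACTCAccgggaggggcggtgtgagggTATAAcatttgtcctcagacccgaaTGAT
SLC3A2: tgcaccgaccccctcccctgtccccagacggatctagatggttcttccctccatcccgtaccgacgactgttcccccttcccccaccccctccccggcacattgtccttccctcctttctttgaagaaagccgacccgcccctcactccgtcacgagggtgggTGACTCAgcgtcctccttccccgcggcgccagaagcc
SLC7A5: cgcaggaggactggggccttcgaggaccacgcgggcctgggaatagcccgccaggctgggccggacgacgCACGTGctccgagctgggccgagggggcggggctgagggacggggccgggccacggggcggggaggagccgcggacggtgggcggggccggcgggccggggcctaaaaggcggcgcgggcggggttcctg

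In these stretches SLC38A2 held a TATA match at bases -28 to -24 and none of the other 4 motifs. SLC38A1 held TATA matches at -148 and -29, an AP-1 match at -57 and a heat shock match at -179, and its C/EBP-ATF match at -4 runs past the start, so only its first bases are seen above. SLC3A2 held an AP-1 match at -37 to -31, and SLC7A5 an E-box at -130 to -125. These starts of SLC38A1 and SLC3A2 were shown with their matches known: the other SLC38A1 window held no match to any motif searched, and the other SLC3A2 windows held only a CCAAT match in 1 of them. The table had 15 windows (250 bases before to 50 after a start) for 9 members and none for SLC7A2; SLC3A2 and SLC1A5 have 3 starts each, and SLC38A1 and SLC1A4 have a pair. The C/EBP-ATF motif was found in 5 of the 15 windows, in SLC7A1, SLC3A2, SLC38A1, SLC1A4 and SLC1A5, against 3.62% of all 35116 windows. In SLC3A2 the match lies at bases 38 to 45 after the start. The window of SLC38A2 held none, and sequence outside the windows, introns included, was not searched. Shares in all windows were 20.44% for TATAA, 7.71% for TGANTCA, 6.77% for GAANNTTC and 7.26% for CACGTG. Of the 15 member windows, 2 held TATAA, 2 TGANTCA, 1 GAANNTTC and 2 CACGTG. The TATA motif was added after these sequences had been read. TGACGNCA, the ATF and cAMP element, was in 3.51% of all windows and in no member window, and CCAAT, left in lower case, was in 34.61% and in 4 member windows. A match describes letters, not binding.

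SLC38A2 encodes SNAT2, a sodium-coupled carrier of small neutral amino acids such as alanine, serine and glutamine. The gene (ENSG00000134294.13) lies on chromosome 12, 46358189 to 46372867, minus strand, GRCh38, and its longest coding transcript has 16 exons. Its TPM was 129.87, 153.35 and 147.26 in the DMSO libraries and 476.07, 450.49 and 501.06 in the H182 libraries. Every H182 library was far above every DMSO library. The means were 143.5 ± 12.2 and 475.9 ± 25.3 TPM (SD, n = 3 each), a log2 change of 1.72 (SE 0.064, limma adjusted p = 5.88e-08). This was the 71st largest rise of the 12294 tested genes and the second largest among 169 tested solute carrier genes, after the glucose transporter SLC2A3. An antisense gene, AC025031.2, overlaps SLC38A2 and has no TPM in the deposited data. Reads from it cannot be told apart if the counting ignored strand.

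SLC38A1 encodes SNAT1, the closest relative of SNAT2 in this list, and lies 88.2 kb from it on the same strand (ENSG00000111371.15, chromosome 12, 46183063 to 46270017, 17 exons). Its TPM was 71.32, 71.29 and 71.76 in DMSO and 58.03, 60.85 and 67.01 in H182. The groups did not overlap, but the H182 libraries were spread widely while the DMSO libraries were nearly equal. The fall was 0.21 on the log2 scale (SE 0.059, limma adjusted p = 0.0319), from 71.5 ± 0.263 to 62.0 ± 4.59 TPM. The call was lost after median-of-ratios scaling (-0.10, adjusted p = 0.215), and also when any of 5 of the 6 libraries was left out (adjusted p = 0.0718 to 0.0976), all but H182 replicate 3.

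Within libraries, SLC38A2 stood at 1.82, 2.15 and 2.05 times SLC38A1 in DMSO and at 8.20, 7.40 and 7.48 times in H182. The relation of these neighbours thus moved 3.84-fold, and such a ratio does not depend on how a library is scaled. The exact two-sided permutation p was 0.1, the smallest that 3 against 3 libraries can give (0.2 adjusted over the 6 pairs compared). Together the 2 genes went from 214.9 ± 12.2 to 537.8 ± 28.6 TPM. Another gene of the family, SLC38A4, had means of 5.36 ± 0.776 (DMSO) and 3.98 ± 0.516 TPM (H182) and did not pass (log2 change -0.35, adjusted p = 0.0892).

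SLC3A2, the shared heavy chain, was the most abundant member in both groups (ENSG00000168003.16, chromosome 11, 62856102 to 62888875, plus strand, 12 exons). Its TPM was 414.36, 399.01 and 416.52 in DMSO and 632.03, 648.29 and 641.60 in H182. The groups were far apart and the replicates close together. The mean went from 410.0 ± 9.55 to 640.6 ± 8.17 TPM, a log2 change of 0.64 (SE 0.033, limma adjusted p = 8.94e-07), rank 288 among all tested genes and 5 among solute carriers.

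SLC7A5 encodes LAT1, the light chain that exchanges large neutral amino acids such as leucine (ENSG00000103257.8, chromosome 16, 87830023 to 87869488, minus strand, 10 exons). Its TPM was 361.58, 369.29 and 367.16 in DMSO and 356.07, 374.85 and 382.12 in H182. The H182 libraries lay on both sides of the DMSO libraries. The log2 change was 0.02 with a 95% interval of -0.07 to 0.10 (adjusted p = 0.751), which in folds is 0.956 to 1.07. Under median-of-ratios scaling, where the median gene moves from -0.09 to 0.00, it was 0.12 and passed (adjusted p = 0.0377).

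SLC7A6, a second light chain, which exchanges cationic for neutral amino acids (chromosome 16, 68264516 to 68301823, plus strand, 12 exons), measured 39.69, 48.33 and 46.02 TPM with DMSO, against 34.02, 40.81 and 42.26 TPM with H182. The groups overlapped, and the log2 change of -0.19 did not pass (interval -0.41 to 0.02, adjusted p = 0.177). SLC7A6OS, on the opposite strand, overlaps this gene, and its libraries ranged from 25.27 to 27.14 TPM with DMSO and from 23.16 to 26.36 TPM with H182; strand-blind counting could mix the 2 genes.

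Relative to the heavy chain, SLC7A5 and SLC7A6 were lower in H182, while the less abundant light chain SLC7A11 went up 1.57-fold, beside 1.56-fold for SLC3A2. The ratio of SLC7A5 to SLC3A2 was 0.873, 0.926 and 0.881 in DMSO and 0.563, 0.578 and 0.596 in H182, and that of SLC7A6 to SLC3A2 went from 0.109 ± 0.0127 to 0.0609 ± 0.00628. In both ratios all H182 libraries were below all DMSO libraries (exact permutation p = 0.1, 0.2 adjusted over the 6 pairs). Summed over the 6 known SLC3A2 partners in the SLC7 family (SLC7A5, SLC7A6, SLC7A7, SLC7A8, SLC7A10 and SLC7A11), light chain mRNA was at 1.01, 1.09 and 1.04 times the heavy chain in DMSO and at 0.658, 0.685 and 0.715 times in H182. SLC7A5 makes up most of that sum, which was 429.5 ± 8.69 TPM in DMSO and 439.4 ± 21.9 TPM in H182. Near equal mRNA numbers in DMSO thus became an excess of heavy chain mRNA in H182; protein was not measured.

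**Figure D2:**
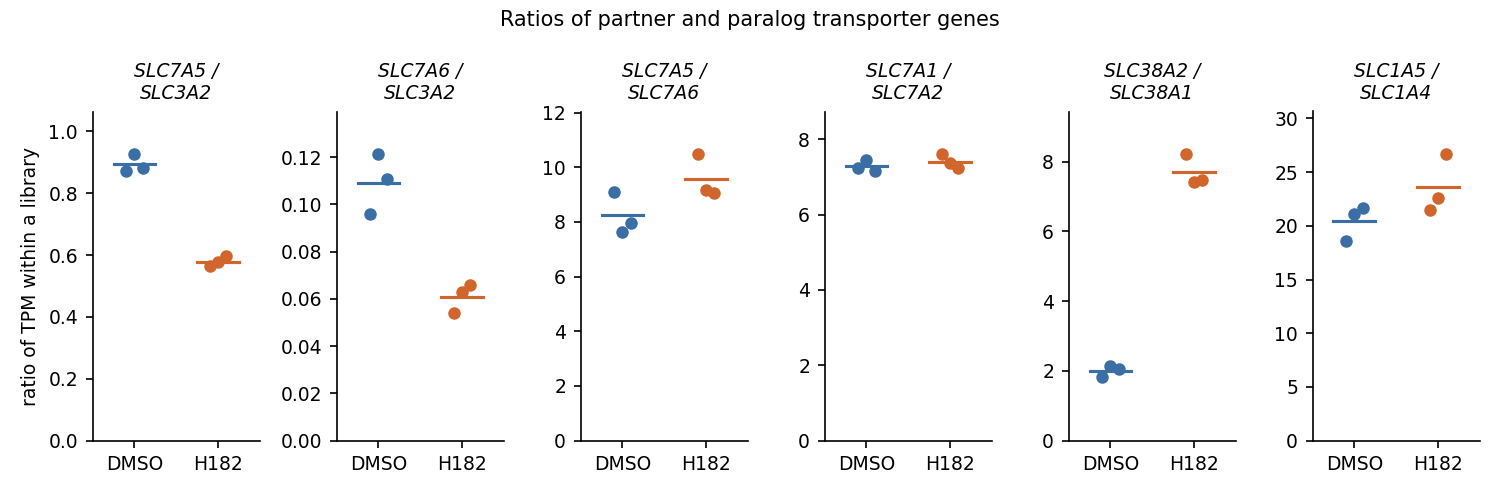
Each panel shows 1 ratio of TPM within a library (linear axis from 0), with 3 DMSO and 3 H182 libraries as points and their mean as a line. SLC38A2 / SLC38A1 rose from about 2.01 to 7.70 and both light chain to SLC3A2 ratios fell without overlap, whereas the ranges of the other 3 ratios overlapped.

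The cationic carriers SLC7A1 (CAT1) and SLC7A2 (CAT2) bring in arginine, lysine and ornithine. SLC7A1 (chromosome 13, 29509410 to 29595688, minus strand, 13 exons) measured 76.38, 77.14 and 74.49 TPM with DMSO, against 69.49, 73.07 and 76.50 TPM with H182. SLC7A2 (chromosome 8, 17497088 to 17570573, plus strand, 14 exons) was far lower, with 10.57, 10.35 and 10.41 TPM with DMSO, against 9.15, 9.91 and 10.59 TPM with H182. Both overlapped between groups, with log2 changes of -0.06 (interval -0.17 to 0.06, adjusted p = 0.437) and -0.07 (interval -0.27 to 0.12, adjusted p = 0.58). SLC7A1 stood at 7.28 ± 0.156 times SLC7A2 in DMSO and 7.40 ± 0.187 times in H182 (exact permutation p = 0.6, also after adjustment).

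SLC1A5 (ASCT2) exchanges neutral amino acids and is a main route for glutamine in many tumour cells, and SLC1A4 (ASCT1) is its relative for alanine, serine and cysteine. SLC1A5 (chromosome 19, 46774883 to 46788594, minus strand, 8 exons) measured 235.69, 245.25 and 244.20 TPM with DMSO, against 237.38, 252.53 and 252.38 TPM with H182. The log2 change was 0.03 (interval -0.06 to 0.12, adjusted p = 0.586) in TPM. Under median-of-ratios scaling it was 0.14 and passed (adjusted p = 0.0347).

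SLC1A4 (chromosome 2, 64988477 to 65023865, plus strand, 8 exons) measured 12.65, 11.60 and 11.28 TPM with DMSO, against 11.03, 11.16 and 9.47 TPM with H182. The groups just failed to touch, and the log2 change of -0.15 did not pass (interval -0.37 to 0.06, adjusted p = 0.269). SLC6A9, the sodium- and chloride-coupled glycine carrier GlyT1 (chromosome 1, 43991500 to 44031467, minus strand, 14 exons), measured 11.18, 11.25 and 11.95 TPM with DMSO, against 11.43, 10.19 and 9.35 TPM with H182. Its log2 change was -0.14 (interval -0.36 to 0.07, adjusted p = 0.31). The opposite-strand genes CCDC24 (2.51 to 5.32 TPM) and AL139220.2 (2.03 to 4.34 TPM) overlap it. The ratio of SLC1A5 to SLC1A4 was 20.5 ± 1.62 in DMSO and 23.6 ± 2.70 in H182, with overlap (exact permutation p = 0.2, 0.24 adjusted), and the same p was found for SLC7A5 to SLC7A6 (8.24 ± 0.770 and 9.57 ± 0.784).

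**Figure D3:**
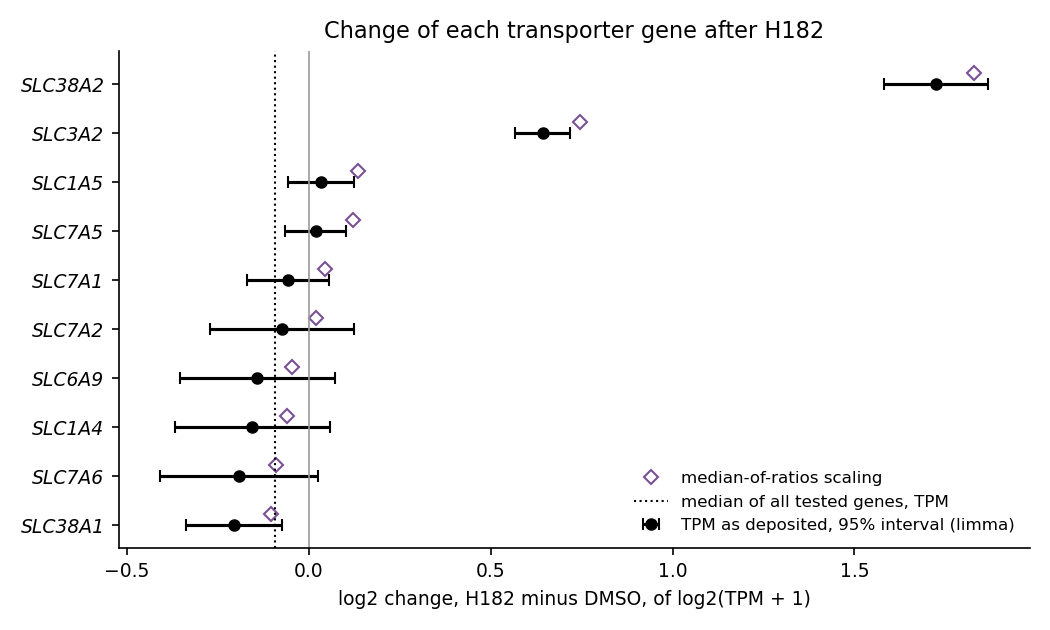
Points are log2 changes of each gene (H182 minus DMSO, on log2(TPM + 1)) with 95% intervals from limma; open diamonds are the changes with median-of-ratios scaling, and the dotted line is the median of all tested genes at -0.09. SLC38A2 at 1.72 and SLC3A2 at 0.64 lie apart from the other 8 genes, which lie between -0.21 and 0.03.

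In DMSO the order of mean TPM was SLC3A2, SLC7A5, SLC1A5, SLC38A2, SLC7A1, SLC38A1, SLC7A6, SLC1A4, SLC6A9 and SLC7A2, and only the neighbours SLC1A4 and SLC6A9 overlapped in their library values. In H182 SLC38A2 stood second, above SLC7A5 and SLC1A5 with no overlap, and the rest of the order was as in DMSO; SLC1A4, SLC6A9 and SLC7A2 overlapped. The sum of the 10 genes was 1387 ± 20.7 TPM in DMSO and 1940 ± 49.3 TPM in H182. SLC38A2 added 332.4 TPM and SLC3A2 230.7 TPM, while the other 8 summed to 833.6 ± 13.1 and 823.2 ± 32.7 TPM. The share of SLC3A2 and SLC38A2 in the sum went from 39.9 ± 0.349% to 57.6 ± 0.829%. In 4 of the 10 members the groups did not overlap, where 41.4% of all tested genes had groups apart. With median-of-ratios scaling 4 members were called higher (SLC38A2, SLC3A2, SLC1A5 and SLC7A5) and none lower, where 7.90% of all tested genes were higher and 6.79% lower. The changes of SLC38A2 and SLC3A2 ranged from 1.66 to 1.83 and from 0.61 to 0.75 over all alternatives.

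The list of other amino acid transporters held 1 rise and 1 fall. Of 43 genes listed, 17 passed the filter, and their median change was -0.06. The rise and the fall were each 5.88% of the 17, beside 5.30% higher and 18.7% lower over all tested genes. SLC7A11, the cystine and glutamate exchanger that also pairs with SLC3A2, went up from 18.01, 18.41 and 18.33 TPM to 25.08, 27.37 and 33.76 TPM (log2 change 0.62, SE 0.101, adjusted p = 0.00235). The fall was that of SLC43A3, now known chiefly as a purine carrier of the SLC43 family, from 306.9 ± 21.1 to 252.3 ± 4.62 TPM (-0.28, adjusted p = 0.0039). No other gene of the list was called lower in TPM. The most abundant ones that did not pass were SLC36A4 (-0.17, adjusted p = 0.0546), SLC38A10 (-0.13) and the taurine carrier SLC6A6 (-0.02). The other light chains were nearly absent, with SLC7A7 at 0.41 to 1.04 TPM and SLC7A8 and SLC7A10 listed at 0.

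Among mitochondrial amino acid carriers none of 9 tested genes (of 11 listed) rose and 3 fell in TPM. The falls were 33.33% of these carriers, where 18.7% of all tested genes fell. The serine carrier SFXN1 went from 120.7 ± 2.13 to 95.5 ± 5.32 TPM (-0.34, adjusted p = 0.0014), a call kept under median-of-ratios scaling (-0.23, adjusted p = 0.00668). The aspartate and glutamate carrier SLC25A13 (-0.30) and SFXN3 (-0.19) also fell in TPM but missed the threshold under that scaling (adjusted p = 0.0552 and 0.403), and SFXN3 was also lost without any 1 of the 6 libraries (0.0665 to 0.136) and with a replicate block (0.0622). SLC25A22 (-0.18), SLC25A38 (0.05) and SLC25A44 (-0.13) did not pass. Over all tested genes 5.30% rose and 18.7% fell (7.90% and 6.79% with median-of-ratios scaling). Of all 159 other solute carrier genes tested, 7 rose and 25 fell, or 4.4% and 15.72% (11 and 6 genes with that scaling). The largest rises were SLC2A3 (4.77-fold, from 10.02 to 10.36 TPM in DMSO libraries to 46.76 to 51.7 TPM in H182 libraries), the thiamine carrier SLC19A2 (1.99-fold), the myo-inositol carrier SLC5A3 (1.87-fold), SLC7A11 and SLC25A27 (1.66-fold). The largest falls were SLC25A45 (-0.51), the iron carrier SLC11A2 (-0.46) and the ascorbate carrier SLC23A2 (-0.41). SLC25A45 was barely expressed, at 1.52 to 1.83 TPM in DMSO and 0.7 to 1.07 TPM in H182. Its change depended on the pseudocount (-0.66 with 0.5 and -0.867 with 0.1). Its call was lost on rescaling by median of ratios (adjusted p = 0.082) and with a replicate block (0.0622). SLC25A27 was lost without DMSO replicate 1 (adjusted p = 0.0714) or H182 replicate 1 (0.072), and SLC25A45 without any one of DMSO 1, 2 or 3 or H182 1 or 2 (0.08 to 0.121).

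The list of integrated stress response factors holds eIF2alpha kinases, phosphatase subunits and transcription factors, and 13 of its 14 genes were called in TPM. In TPM 8 were higher and 5 lower, or 57.14% and 35.71% (8 and 2 genes with median-of-ratios scaling). Over all tested genes 5.30% were higher and 18.7% lower (7.90% and 6.79% with that scaling). ATF4 itself increased from 389.9 ± 8.97 to 486.6 ± 4.66 TPM (log2 change 0.32, adjusted p = 0.000151), though it is controlled largely in translation, which these data do not measure. Among other transcription factors of the list, CEBPB rose from 70.5 ± 3.52 to 285.4 ± 1.92 TPM (2.00) and ATF3 from 4.56 ± 0.608 to 135.5 ± 14.7 TPM (4.62). DDIT3 (CHOP) rose by 1.24, CEBPG by 0.30 and TRIB3, an ATF4 inhibitor, by 0.34. PPP1R15A, the phosphatase subunit that ends eIF2alpha signalling, rose by 1.96 and the endoplasmic reticulum kinase gene EIF2AK3 (PERK) by 0.47. The kinase genes EIF2AK4 (GCN2, -0.32), EIF2AK2 (PKR, -0.25) and EIF2AK1 (HRI, -0.24) fell in TPM, as did PPP1R15B (-0.29) and ATF5 (-0.24). The falls of EIF2AK1, EIF2AK2 and ATF5 were lost under median-of-ratios scaling (adjusted p = 0.284, 0.0992 and 0.13). Leaving out 1 library also ended the calls of EIF2AK1 (all but DMSO 1, 0.0668 to 0.149), ATF5 (DMSO 1 or 3, H182 1 or 2, 0.0538 to 0.063) and EIF2AK2 (DMSO 2, H182 1 or 2, 0.0543 to 0.0652). Among the rises, the same held for EIF2AK3 (DMSO 3, H182 2 or 3, 0.0561 to 0.0583) and TRIB3 (DMSO 2, 0.0512). NUPR1 (-0.33) did not pass.

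**Figure D4:**
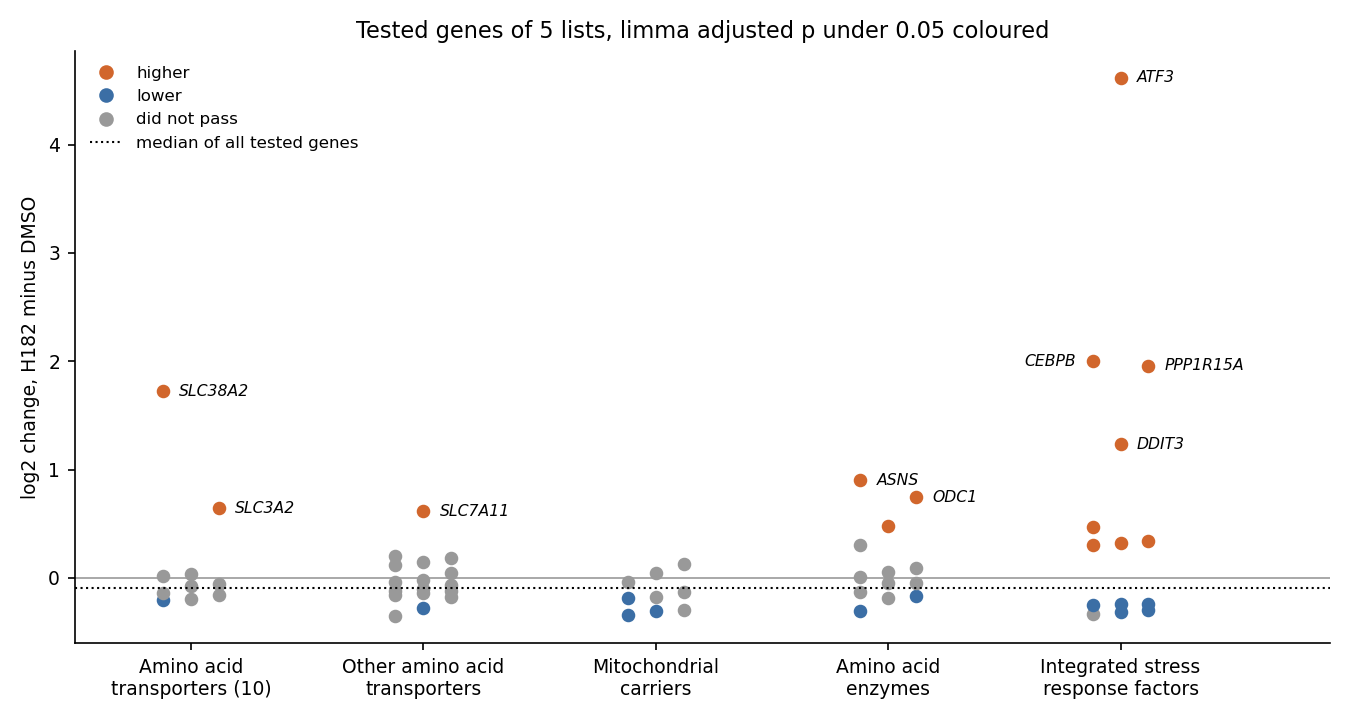
Points are log2 changes (H182 minus DMSO) of the tested genes of 5 lists, coloured where the limma adjusted p was under 0.05, with genes beyond 0.55 named. SLC38A2 and SLC3A2 are the only coloured rises among the 10 transporters, against 8 coloured rises among 14 integrated stress response factors. Over all tested genes 5.30% were called higher.

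Of 6 other transcription factors with transporter genes among their reported targets, MYC increased from 256.3 ± 3.70 to 581.4 ± 11.5 TPM (1.18, adjusted p = 7.93e-09) and YAP1 fell (-0.26). The fall of YAP1 was not called after median-of-ratios scaling (0.0807), nor without replicate 2 of DMSO (0.0516) or H182 (0.0519). HIF1A (-0.13), TFE3 (0.04) and NFE2L2 (0.12) did not pass, though NFE2L2 did with that scaling (0.22, adjusted p = 0.0499). HIF1A was called lower with library weights (-0.151, adjusted p = 0.0384) and without H182 replicate 3 (-0.18, adjusted p = 0.0213). Of 6 genes of transporter trafficking and turnover, the kinase SGK1, which acts on several membrane carriers, rose from 33.1 ± 1.12 to 201.2 ± 4.64 TPM (2.57, adjusted p = 3.8e-10). LAPTM4B, which brings LAT1 to lysosomes, fell by 0.24 in TPM (adjusted p = 0.037). That call was lost under median-of-ratios scaling (0.208) and without DMSO replicate 2 or 3 or H182 replicate 1 or 2 (0.0635 to 0.115). The ubiquitin ligases NEDD4L (-0.06) and RNF5 (-0.003) and BSG, a chaperone of monocarboxylate carriers (-0.01), did not pass.

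Enzymes that use the carried amino acids showed 3 rises and 2 falls among 13 tested genes of 15 listed (4 and 0 with median-of-ratios scaling). In TPM these were 23.08% and 15.38% of the genes tested. Over all tested genes 5.30% rose and 18.7% fell (7.90% and 6.79% with that scaling). ODC1, which turns ornithine into putrescine, rose from 398.6 ± 10.2 to 669.7 ± 36.7 TPM (0.75, adjusted p = 2.66e-06), and asparagine synthetase ASNS from 55.9 ± 1.92 to 105.4 ± 2.88 TPM (0.90). Glutamine synthetase GLUL rose by 0.48. The branched-chain aminotransferase BCAT1 (-0.30) and the aspartate aminotransferase GOT2 (-0.17) fell in TPM, and both calls were lost under median-of-ratios scaling (adjusted p = 0.0855 and 0.363). They were also lost without 1 library, BCAT1 for DMSO 1 or 3 and H182 1 or 2 (0.0521 to 0.0702) and GOT2 for DMSO 2 or 3 and H182 1 or 2 (0.0522 to 0.0864). SHMT2 (0.01), GSS (-0.05) and GOT1 (-0.05) did not pass.

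Changes in TPM are shares of a fixed total, and the median change of all tested genes was -0.09 on the log2 scale. All 6 high markers of the line fell further than that median and were called lower in TPM, by 0.14 (KRT18) to 0.35 (CAV1). With median-of-ratios scaling 3 of them (CD44, AXL and CAV1) were called lower. Over all tested genes 18.7% were called lower in TPM and 6.79% with that scaling. The fall of SLC38A1 (0.21) was within the range of the markers and went beyond the median change of all tested genes (-0.09). Whether a shift shared by most genes accounts for it was not tested. The rises of SLC38A2 and SLC3A2 were called under every scaling tried.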

How the data were processed

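Poly-A RNA of 6 libraries of MDA-MB-231 cells (3 DMSO, 3 H182) was sequenced after a stranded Illumina preparation, per the labels' protocols. The authors deposited TPM per gene and library; STAR 2.5.0, RSEM 1.2.25 and GRCh38 are named in the submitters' processing notes, while the annotation, trimming and strand setting are not given in the sources used here. Of 27567 rows, 92 spike-in rows (all at 0) and 24 second rows of genes shared by X and Y were left out. Columns were matched to samples by title. TPM were analysed as log2(TPM + 1) keeping genes whose mean reached 1 TPM, with limma 3.58.1 in R 4.3.3 (empirical Bayes with a mean-variance trend, two-sided, Benjamini-Hochberg over all tested genes), without a replicate block. Adjusted p-values of single genes come from that fit, each ± is an SD (n = 3), and fold changes on this scale understate those of low genes. Within-library ratios were compared by exact permutation in SciPy 1.17.1. The fit was tested on simulated data first. Coordinates and exon numbers come from GENCODE 29 (longest basic coding transcript); 8 of 10 members matched with the same version. Start regions are RefSeq's, GRCh38.p14.

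The members, lists and tests were chosen with earlier results of these data known. Named genes were all members, all integrated stress response factors, up to 5 passing genes with the lowest p and 3 abundant ones that did not pass per other list, and the 5 largest rises and 3 largest falls of other solute carriers whose groups did not overlap. SLC38A4, SLC38A6, SLC38A7, SLC38A9, SLC7A7, SLC7A8 and SLC7A10 were named after their values were seen. Alternatives covered pseudocount, filter, scaling, variance model, library weights, replicate block, threshold and leaving out each library; library totals without HSPA1A, HSPA1B and DNAJB1 were added after seeing the data.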

Additional observations from a re-analysis of the deposited data

How the results depend on the processing

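SLC38A2 and SLC3A2 were called higher under every alternative run, and the 6 within-library ratios kept their direction. Leaving out 1 library gave 1407 to 2205 genes lower in H182 in all (1407 without DMSO replicate 2, 1486 without H182 replicate 2), 0 to 1 members lower and 1 to 2 other amino acid transporters lower. Against 2304 genes lower in TPM, there were 835 with median-of-ratios scaling, 1261 with quantile normalization, 998 at a threshold of 0.01 and 1496 with totals without HSPA1A, HSPA1B and DNAJB1, an alternative added after seeing the data. SLC38A1 was the 1 member called lower, and 0 members were lower in those 4 settings, without a filter and without the variance trend. Median-of-ratios scaling called 4 members higher and 2 other transporters higher; quantile normalization also called 2 others higher, and the 5 TPM filter and library weights called 2 others lower.

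Changes that turned direction belonged to genes that did not pass in TPM. With median-of-ratios scaling they were SLC7A1 0.044, SLC7A2 0.02, SLC6A6 0.085, BSG 0.091, NEDD4L 0.048, RNF5 0.1, GSS 0.056 and GOT1 0.054. With quantile normalization they were SLC7A1 0.016, SLC6A6 0.066, NEDD4L 0.004, RNF5 0.082, GSS 0.035 and GOT1 0.04. Library weights gave BSG 0.015, RNF5 0.009 and SHMT2 -0.001, and the totals without the 3 heat shock genes gave SLC6A6 0.022, BSG 0.026 and RNF5 0.035. Leaving out 1 library gave SLC7A5 -0.003 to 0.048, SLC6A6 -0.144 to 0.068, BSG -0.066 to 0.029, RNF5 -0.057 to 0.031, SHMT2 -0.039 to 0.057 and GOT1 -0.098 to 0.003. The cause was not tested.

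The labels do not say whether same-numbered replicates share a culture or a day. Deviations of same-numbered libraries correlated at -0.013, 0.002 and -0.036 across genes. With a replicate block, SLC38A2 stayed at 1.725 (adjusted p = 6.91e-07, limma), 2 members were higher and 1 lower, and 625 genes were called higher and 2059 lower in all. Of the named genes, SFXN3 (-0.189) and SLC25A45 (-0.51) lost their calls under the block (adjusted p = 0.0622 for each). TPM keep no depth, so the precision of low genes cannot be given.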
